A study of Arabidopsis thaliana with 10 samples.

Results

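PDF1.2, PDF1.2b and PDF1.4 are 3 plant defensin genes of Arabidopsis thaliana, chosen by gene symbol in the platform annotation from a table of 22746 tested probe sets. Each was read by 1 probe set: 249052_at for PDF1.2 (AT5G44420), 257365_x_at for PDF1.2b (AT2G26020) and 261135_at for PDF1.4 (AT1G19610). RNA of whole seedlings was hybridised to Affymetrix arrays. The seedlings were harvested at 12 days of age without stress, with a light period of 16 h, from 5 lines and 2 arrays per line. FL3 constitutively expressed full-length TaSIN, and ΔC26 and ΔC27 constitutively expressed a shortened TaSIN without its transmembrane motif. The controls were VC, a transgenic line with an empty vector, and untransformed wild type Col-0. The promoter that drove TaSIN is not given in the sources used here. Full-length TaSIN was represented by 1 line and each ΔC line is 1 line, so a difference between lines carries whatever else sets that line apart. The labels describe the 2 arrays of a genotype as independent biological replicates.

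Plant defensins are small secreted peptides held together by disulfide bridges, and many of them inhibit the growth of fungi. In Arabidopsis the hormones jasmonate and ethylene act together, through transcription factors of the ERF family such as ERF1 and ORA59, to switch on PDF1.2, which is widely used as a marker of that branch of defence. Salicylate, the hormone of another defence branch, is known to lower PDF1.2. In the TAIR10.1 gene table PDF1.2 lies beside its close relative PDF1.2c, and PDF1.2b lies beside PDF1.3. The suffix _x_at marks an Affymetrix probe set with probes that also match other sequences, so the PDF1.2b signal may include RNA of other PDF1 genes. Cross-reading between PDF1.2 and PDF1.2b was not tested, and they are not taken as independent members.

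The arrays had similar overall levels, with array medians of intensity between 41.7 and 44.2. Replicate arrays differed with an SD of 0.206 to 0.415 (log2, over probe sets), largest in ΔC27. Of the 10 arrays, 3 correlated more closely with an array of another line than with their own replicate: ΔC26 replicate 1 and both ΔC27 arrays. The photosynthesis genes LHCB4.1, RCA and PSAE-1, the named members of a list of 8 shoot markers, were all expressed. Their summed intensity was lowest in ΔC27, at 10744 to 11308, against 12755 to 15033 over the control arrays, 13370 to 13765 in FL3 and 15097 to 16655 in ΔC26. Of 9 root markers, EXPA7 and EXPA18 had a named probe set, with a summed intensity of 25.5 to 38.7 over the control arrays, 21.5 to 35.9 in FL3, 41.7 to 88.4 in ΔC26 and 40.0 to 65.9 in ΔC27. None of the 5 seed and 4 flower markers had a named probe set.

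All 3 defensin genes were lowest in ΔC27 and, among the lines with TaSIN, highest in ΔC26, with FL3 in between. In ΔC27 all 3 were called lower than the controls, as were 8.49% of all probe sets. In FL3 PDF1.4 was called lower, as were 0.488%, but it did not pass against Col-0 alone (limma, adjusted p = 0.19). PDF1.2 and PDF1.2b lay below every control array in FL3, as did 11.6% of probe sets. Both missed the threshold over all probe sets (limma, adjusted p = 0.054 and 0.057). They were farther from it against VC alone (limma, adjusted p = 0.17 and 0.19). In ΔC26 no member passed. In whole seedlings fewer cells of a type and less RNA per cell cannot be told apart.

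**Figure D1:**
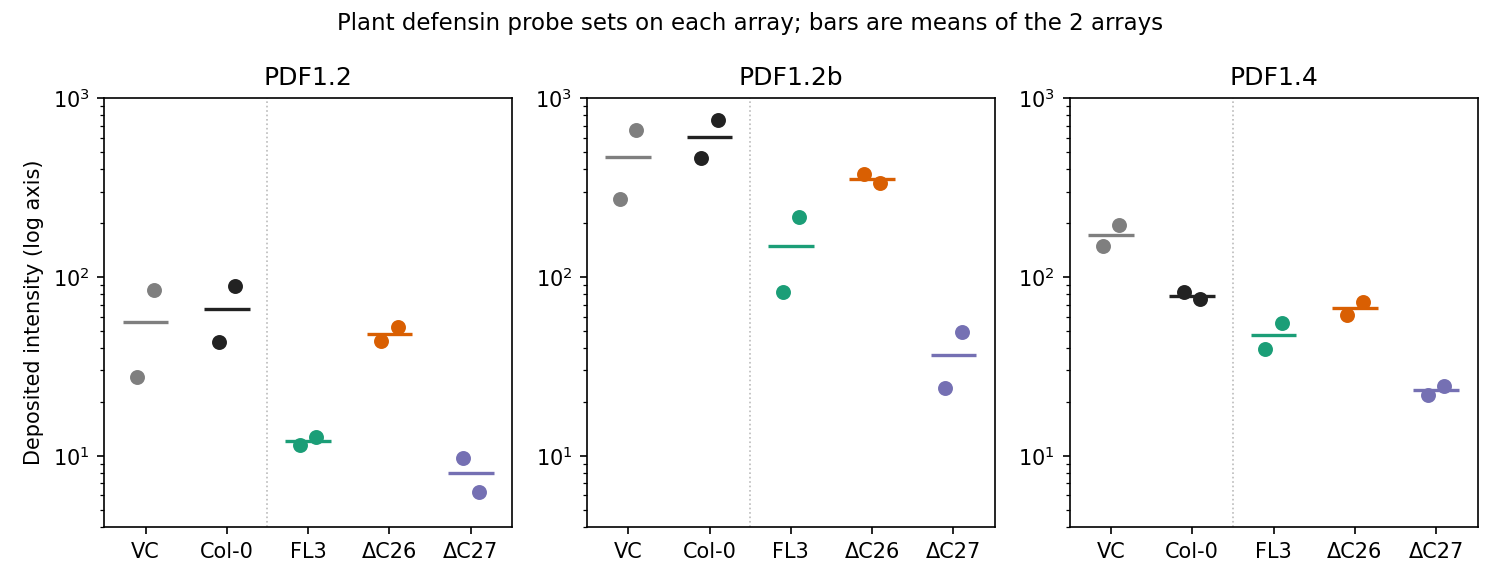
Deposited intensity (log axis) of the 3 defensin probe sets on each of the 10 arrays, by line. Points are arrays and bars are means of the 2 arrays of a line. The ΔC27 arrays are the lowest for all 3 genes, and for PDF1.2 and PDF1.2b the ΔC26 arrays lie within the range of the 4 control arrays.

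PDF1.2, the standard marker of the jasmonate and ethylene branch, had intensities of 27.4 and 84.0 in VC and 43.4 and 89.2 in Col-0. It was at 11.5 and 12.7 in FL3, 43.6 and 52.8 in ΔC26, and 9.66 and 6.29 in ΔC27. The FL3 and ΔC27 arrays lay below all 4 control arrays, and both ΔC26 arrays lay within the control range. The level was 61.0 ± 30.3 (SD, n = 4) over the controls, 12.1 ± 0.85 (SD, n = 2) in FL3, 48.2 ± 6.49 in ΔC26 and 7.97 ± 2.38 in ΔC27, which is 19.8%, 79.0% and 13.1% of the control mean. In FL3 and ΔC27 the probe set was near the lower end of the scale: 8.76% to 31.0% of probe sets on the same array were dimmer, against 42.8% to 64.3% on the control arrays. In ΔC27 replicate 2 was at the level of PDF1.1, a defensin probe set with line means of 6.02 to 8.52. Replicate 1 was above those means, and no detection calls were used here. The 13.1% therefore does not measure the remaining level, and the size of the fall in ΔC27 is not resolved at this brightness. A fold change there is compressed by the pseudocount of 16 that was added before taking log2.

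On the scale of log2(intensity + 16), used for all differences below, PDF1.2 fell in ΔC27, with a difference of -1.59 ± 0.31 (SE) from the mean of VC and Col-0, a 95% interval from -2.29 to -0.90 and an adjusted p of 0.0081 (limma, Benjamini-Hochberg over all probe sets). In FL3 the difference was -1.36 ± 0.31, with an interval from -2.06 to -0.67, and did not pass (limma, adjusted p = 0.054). In ΔC26 it was -0.17 ± 0.31, with an interval from -0.87 to 0.52 (limma, adjusted p = 0.83). With a pseudocount of 1 the difference was -2.09 in FL3 and -2.66 in ΔC27, and the FL3 difference then passed (limma, adjusted p = 0.026).

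PDF1.2b was the brightest of the 3 probe sets on every control array. It had intensities of 273 and 662 in VC, 462 and 751 in Col-0, 82.1 and 217 in FL3, 374 and 333 in ΔC26, and 23.8 and 49.2 in ΔC27. As for PDF1.2, the FL3 and ΔC27 arrays lay below all 4 control arrays and those of ΔC26 did not. The level was 537 ± 213 (SD, n = 4) over the controls, 150 ± 95.4 (SD, n = 2) in FL3, 354 ± 29.2 in ΔC26 and 36.5 ± 18.0 in ΔC27, which is 27.9%, 65.8% and 6.80% of the control mean. The ratio of the control mean to the ΔC27 mean was 14.7.

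PDF1.2b fell in ΔC27, with a log2 difference of -3.34 ± 0.41 and an interval from -4.27 to -2.42 (limma, adjusted p = 0.0010). That was the fourth lowest log2 difference among the 22746 probe sets in ΔC27, where PDF1.4 ranked 73 and PDF1.2 ranked 100 from the most lowered. In FL3 its difference of -1.78 ± 0.41, with an interval from -2.70 to -0.86, was the third lowest of all but did not pass (limma, adjusted p = 0.057), and PDF1.2 ranked 8 and PDF1.4 ranked 25 there. In ΔC26 the difference was -0.49 ± 0.41, with an interval from -1.41 to 0.43 (limma, adjusted p = 0.59). The 2 FL3 arrays of PDF1.2b differed 2.64-fold.

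PDF1.4, also named LCR78 for the family of low-molecular-weight cysteine-rich peptides, had intensities of 149 and 194 in VC and 82.0 and 74.9 in Col-0. It was at 39.4 and 55.5 in FL3, 61.2 and 72.0 in ΔC26, and 21.8 and 24.6 in ΔC27. All 6 arrays of lines with TaSIN, at 21.8 to 72.0, lay below all 4 control arrays, at 74.9 to 194, although the highest ΔC26 array and the lowest Col-0 array were close. That complete separation downwards occurred in 3.52% of all probe sets. The level was 125 ± 56.9 (SD, n = 4) over the controls, 47.5 ± 11.3 (SD, n = 2) in FL3, 66.6 ± 7.64 in ΔC26 and 23.2 ± 2.00 in ΔC27.

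PDF1.4 fell in ΔC27, with a log2 difference of -1.76 ± 0.16 and an interval from -2.12 to -1.39 (limma, adjusted p = 0.00027). It fell in FL3 too, with -1.08 ± 0.16 and an interval from -1.44 to -0.71 (limma, adjusted p = 0.0097). In ΔC26 the difference was -0.69 ± 0.16, with an interval from -1.05 to -0.32, and did not pass (limma, adjusted p = 0.059). The FL3 call ended without FL3 replicate 1 (log2 difference -0.89, limma adjusted p = 0.17) or FL3 replicate 2 (-1.26, limma adjusted p = 0.051).

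Read against the background of all probe sets, 3 of 3 members were called lower in ΔC27, where 8.49% of probe sets were called lower. In FL3 1 of 3 was called lower, where 0.488% were. In ΔC26 0 of 3 were called by limma, where 0.8% of probe sets were called lower, and 1 of 3, PDF1.4, had an unadjusted p under 0.05, as 18.3% of probe sets did. Groups that do not overlap were common at this number of arrays. Both FL3 arrays lay below all 4 control arrays in 11.6% of probe sets, both ΔC26 arrays in 12.2% and both ΔC27 arrays in 18.7%, and this held for 3, 1 and 3 of the 3 members. The 3 comparisons use the same 4 control arrays, so their differences are not independent of each other. The members were chosen with earlier results of these data known, and PDF1.2 and PDF1.2b are not taken as independent. The counts therefore describe the 3 genes and are no test of them as a set.

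The control lines themselves differed in ways that bear on the 3 genes unequally. For PDF1.4 VC was at 172 ± 31.7 and Col-0 at 78.5 ± 5.02 (SD, n = 2 each), and both VC arrays lay above both Col-0 arrays, as in 20.3% of probe sets. The difference VC minus Col-0 was 0.98 ± 0.19 on the log2 scale, with an interval from 0.56 to 1.401. Its unadjusted limma p was 0.00043, and after adjustment it missed the threshold (limma, adjusted p = 0.16). Its size was close to that of the FL3 difference and larger than that of the ΔC26 difference from the control mean. Between VC and Col-0 0.0264% of probe sets were called in either direction, and 7.01% had an unadjusted p under 0.05.

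Which control line was used therefore decided 2 calls of PDF1.4. Against VC alone PDF1.4 was lower by 1.57 in FL3 and by 1.18 in ΔC26, and both differences passed (limma, adjusted p = 0.0059 and 0.023), where 0.356% and 0.281% of probe sets were called higher in VC. Col-0 minus FL3 was 0.59 in PDF1.4, with an interval from 0.17 to 1.005, and Col-0 minus ΔC26 was 0.20, with an interval from -0.22 to 0.62. Neither passed (limma, adjusted p = 0.19 and 0.65), where 0.347% and 0.629% were called higher in Col-0. In ΔC27 PDF1.4 passed against either control line, with log2 differences of -2.25 from VC and -1.27 from Col-0 (limma, adjusted p = 0.00029 and 0.0031). Called higher than in ΔC27 were 5.55% of probe sets in VC and 6.72% in Col-0. When the 4 control arrays were taken as 1 group, so that the difference between VC and Col-0 entered the spread, the FL3 difference of PDF1.4 did not pass (limma, adjusted p = 0.14), while that of ΔC27 did (limma, adjusted p = 0.014).

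For PDF1.2 and PDF1.2b the spread lay within the control lines rather than between them. The 2 arrays of VC differed 3.06-fold in PDF1.2 and 2.42-fold in PDF1.2b, and those of Col-0 2.06-fold and 1.62-fold. Between the VC arrays 99.7% and 99.8% of all probe sets had a smaller log2 difference than PDF1.2 and PDF1.2b, and between the Col-0 arrays 99.0% and 98.1%. The 2 FL3 arrays were also farther apart in PDF1.2b than in 99.8% of probe sets, but close together in PDF1.2, at 11.5 and 12.7. VC and Col-0 differed by -0.26 in PDF1.2, with an interval from -1.07 to 0.54, and by -0.45 in PDF1.2b, with an interval from -1.52 to 0.61 (limma, adjusted p = 0.94 and 0.91). Both genes passed in ΔC27 against either control line, with differences of -1.46 and -1.72 in PDF1.2 and -3.12 and -3.57 in PDF1.2b from VC and Col-0 (limma, adjusted p = 0.030, 0.013, 0.0046 and 0.0019). In FL3 neither passed against either line alone.

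**Figure D2:**
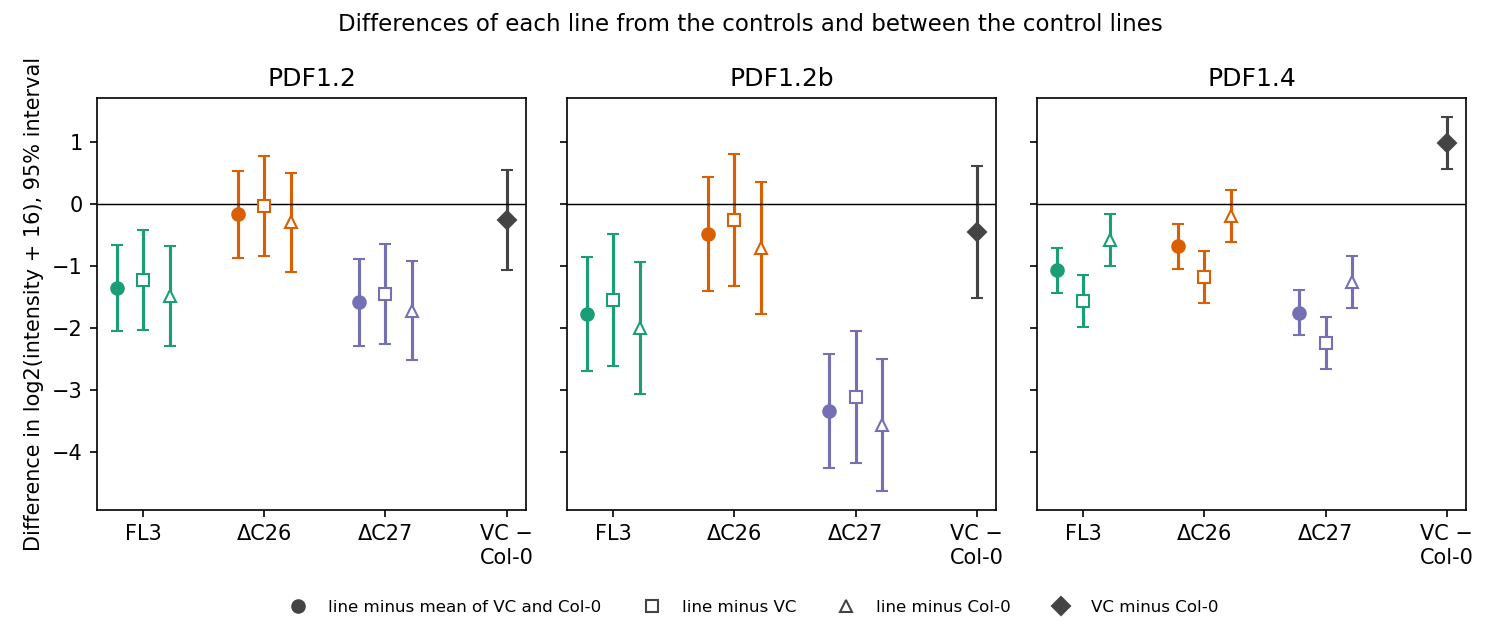
Difference in log2(intensity + 16) of FL3, ΔC26 and ΔC27 from the mean of the controls (filled circles), from VC (open squares) and from Col-0 (open triangles), and of VC from Col-0 (diamonds), with 95% intervals from limma (2 arrays per line). PDF1.4 shows a control difference of 0.98 and a smaller fall against Col-0 than against VC, while the ΔC27 intervals lie below 0 for all 3 genes.

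The order of the mean levels placed the lines alike for PDF1.2 and PDF1.2b: Col-0, VC, ΔC26, FL3 and ΔC27 from high to low. For PDF1.4 the order was VC, Col-0, ΔC26, FL3 and ΔC27. In PDF1.2 no neighbours in that order differed past the threshold, and of the 10 pairs of lines 2 did, ΔC27 against VC and against Col-0. In PDF1.2b 3 pairs passed, ΔC27 against VC, Col-0 and ΔC26, and in PDF1.4 5 pairs passed, the same 3 together with VC against FL3 and VC against ΔC26. No neighbours passed in the order of PDF1.2b or PDF1.4 either. The step from FL3 to ΔC27 was 0.23 in PDF1.2, with an interval from -0.57 to 1.04, 1.57 in PDF1.2b, with an interval from 0.51 to 2.63, and 0.68 in PDF1.4, with an interval from 0.26 to 1.103 (limma, adjusted p = 0.85, 0.16 and 0.13), and 0.866% of probe sets were called between these lines. The step from ΔC26 down to FL3 was -1.19 in PDF1.2, -1.29 in PDF1.2b and -0.39 in PDF1.4 (limma, adjusted p = 0.25, 0.37 and 0.48), and 0.237% were called.

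The 2 lines with the same truncated TaSIN differed in these genes. ΔC26 was above ΔC27 on both arrays for all 3 genes, which held for 22.9% of all probe sets. The difference ΔC26 minus ΔC27 was 2.86 ± 0.47 in PDF1.2b, with an interval from 1.79 to 3.92, and 1.07 ± 0.19 in PDF1.4, with an interval from 0.65 to 1.49, and both passed (limma, adjusted p = 0.017 and 0.020). In PDF1.2 it was 1.42 ± 0.36, with an interval from 0.62 to 2.22, and did not pass (limma, adjusted p = 0.069). Between these lines 2.12% of probe sets were called higher in ΔC26. The call of PDF1.2b ended without ΔC26 replicate 1 or 2 (limma, adjusted p = 0.054 and 0.098), and that of PDF1.4 without ΔC26 replicate 2 or ΔC27 replicate 1 (limma, adjusted p = 0.11 and 0.061). The summed shoot markers were also lower in ΔC27 than in ΔC26 on both arrays, with LHCB4.1, a light-harvesting protein, at 3802 against 5331. The differences ΔC26 minus ΔC27 of LHCB4.1, RCA and PSAE-1 were 0.48, 0.50 and 0.61. None of them passed (limma, adjusted p = 0.069, 0.086 and 0.058). LHCB4.1 fell in ΔC27 against the controls, with a log2 difference of -0.50 ± 0.11 (limma, adjusted p = 0.012), a call that ended without ΔC27 replicate 1 or 2 (-0.49 and -0.50, limma adjusted p = 0.063 and 0.054). RCA and PSAE-1 had ΔC27 differences from the controls of -0.15 and -0.35 that did not pass (limma, adjusted p = 0.46 and 0.088). The part of a change in tissue makeup in the defensin levels was not tested.

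Over the 10 arrays the log2 levels of PDF1.2 and PDF1.2b followed each other (Pearson r 0.908, Spearman rho 0.939). The coefficients were 0.734 and 0.758 for PDF1.2 and PDF1.4, and 0.812 and 0.818 for PDF1.2b and PDF1.4. Other genes were compared among 2079 probe sets with 1 gene whose log2 levels spanned at least 1. Of these, 0.096% had a Pearson coefficient with PDF1.2 at least as high as that of PDF1.2b. For PDF1.4 the share was 4.52% with PDF1.2 and 7.55% with PDF1.2b. These are descriptions of 10 arrays from 5 lines, and arrays of a line share that line. With line means removed, the arrays' deviations correlated at 0.646 for PDF1.2 and PDF1.2b, 0.441 for PDF1.2 and PDF1.4, and 0.757 for PDF1.2b and PDF1.4. With 2 arrays per line, each of these coefficients rests on 1 difference between arrays in each of the 5 lines. In VC and Col-0 the array with more PDF1.2 also had more PDF1.2b, whereas in ΔC26 and ΔC27 it had less. Without the 2 ΔC27 arrays the coefficient of PDF1.2b and PDF1.4 was 0.584.

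**Figure D3:**
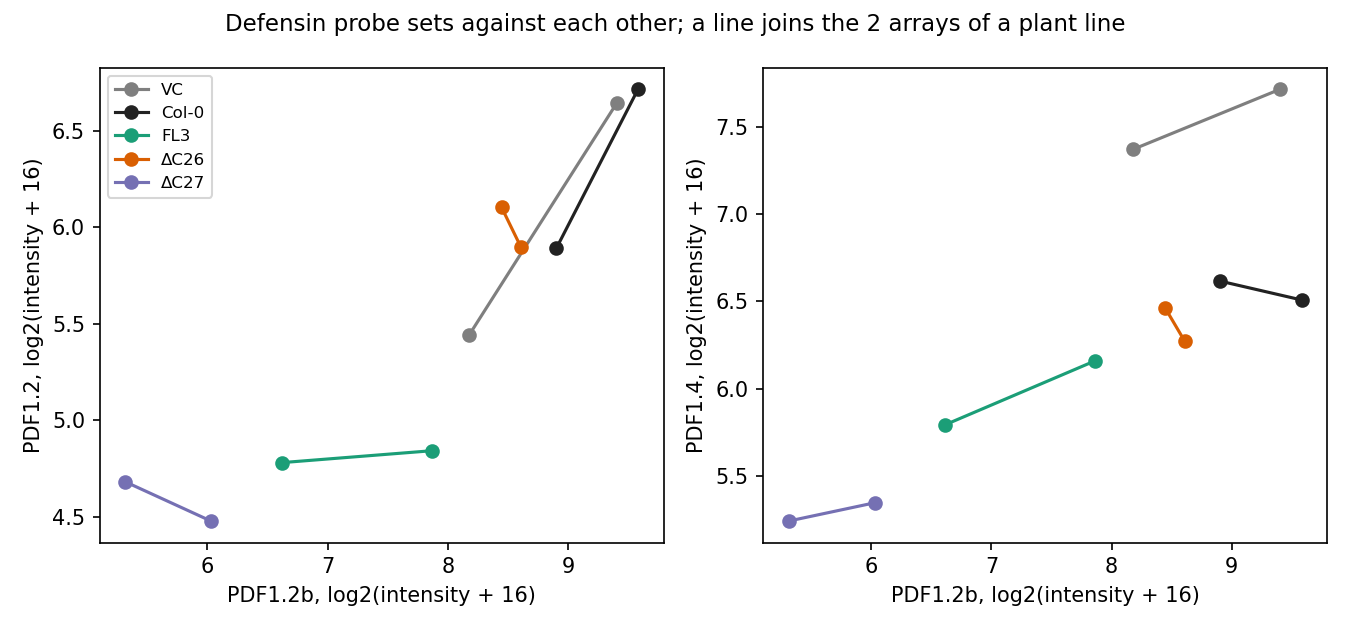
Log2(intensity + 16) of PDF1.2 (left) and PDF1.4 (right) against that of PDF1.2b on the 10 arrays. Each line segment joins the 2 arrays of a plant line. The ΔC27 arrays are lowest on all axes, and VC stands above Col-0 in PDF1.4 but not in PDF1.2.

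Other genes were ranked by how closely their log2 levels followed each member over the 10 arrays, among 2079 probe sets with 1 gene whose log2 levels spanned at least 1. The closest to PDF1.2 were SP1L2 (SPIRAL1-LIKE2), with a Pearson coefficient of 0.938, and AT3G61160, AT4G33540, AT1G66100 and AT3G20300, with 0.874 to 0.928. AT1G66100 averaged 184 in VC and 235 in Col-0, and its mean was 47.8 in FL3, 336 in ΔC26 and 20.5 in ΔC27. The closest to PDF1.2b were AT1G78460 (0.965), AT4G28030, AT1G28070, AT1G68585 and AT1G22690 (0.932). AT1G22690 was bright, with means of 1856 in VC and 1904 in Col-0, 1103 in FL3, 1509 in ΔC26 and 447 in ΔC27. The closest to PDF1.4 were AT3G22060 (0.961), AT1G60160, AT1G23830, AT1G68110 and AT1G19540 (0.923). AT3G22060 also repeated the difference between the control lines, at 73.7 in VC and 35.5 in Col-0, with 23.3 in FL3, 21.2 in ΔC26 and 10.4 in ΔC27. The 3 lists of 5 shared no gene.

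The wider family of plant defensins did not move as one. Of 15 genes in that list 10 had a named probe set, and 7 of these were not among the 3 members. PDF2.1 went the opposite way: it had intensities of 91.7 and 65.2 in VC, 79.2 and 110 in Col-0, 163 and 160 in FL3, 328 and 374 in ΔC26, and 334 and 241 in ΔC27. All 6 arrays with TaSIN lay above all 4 control arrays, which held for 4.81% of probe sets. PDF2.1 rose by 1.86 ± 0.18 in ΔC26 and 1.57 ± 0.18 in ΔC27 (limma, adjusted p = 0.0013 and 0.00077), calls that held under every alternative tried, and by 0.81 ± 0.18 in FL3 (limma, adjusted p = 0.049), a call that ended under most alternatives.

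PDF2.4 resembled PDF1.4 in the order of line means, averaging 39.4 in VC and 19.5 in Col-0, against 11.3 in FL3, 13.1 in ΔC26 and 7.78 in ΔC27. Its VC arrays were far apart, at 53.1 and 25.7. The ΔC27 arrays, at 6.69 and 8.88, were as dim as PDF1.1 and PDF2.6, so the size of the fall is not resolved. PDF2.4 had few bright arrays to rest on. PDF2.4 fell in ΔC27, with a log2 difference of -0.88 ± 0.18 (limma, adjusted p = 0.011), but not against Col-0 alone (-0.58, limma adjusted p = 0.11) or in the 2-group fit (limma, adjusted p = 0.061). It had differences of -0.69 in FL3 and -0.59 in ΔC26 that did not pass. PDF2.5 had differences of 0.30 in FL3, 1.39 in ΔC26 and 1.09 in ΔC27, with the ΔC26 arrays far apart at 69.7 and 218, and none passed (limma, adjusted p = 0.85, 0.10 and 0.096). PDF2.2, the brightest defensin probe set with a mean of 3648 over the controls, had differences of -0.33, 0.26 and 0.22, and PDF2.3 of 0.12, 0.13 and 0.14, in FL3, ΔC26 and ΔC27. PDF1.1 and PDF2.6 were dim in all lines, with line means from 6.02 to 10.7. Of these 7 other defensins 1 rose and 0 fell in FL3, 1 rose and 0 fell in ΔC26, and 1 rose and 1 fell in ΔC27. Over all probe sets 2.2%, 1.91% and 8.2% were called higher and 0.488%, 0.8% and 8.49% lower in FL3, ΔC26 and ΔC27. Their median log2 difference was 0.10, 0.13 and 0.14 in FL3, ΔC26 and ΔC27, beside -0.005, 0.003 and 0.001 over all probe sets. A further 3 low-molecular-weight cysteine-rich genes had a named probe set, LCR24, LCR59 and LCR80, all at intensities of 4.40 to 6.93 on every array.

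**Figure D4:**
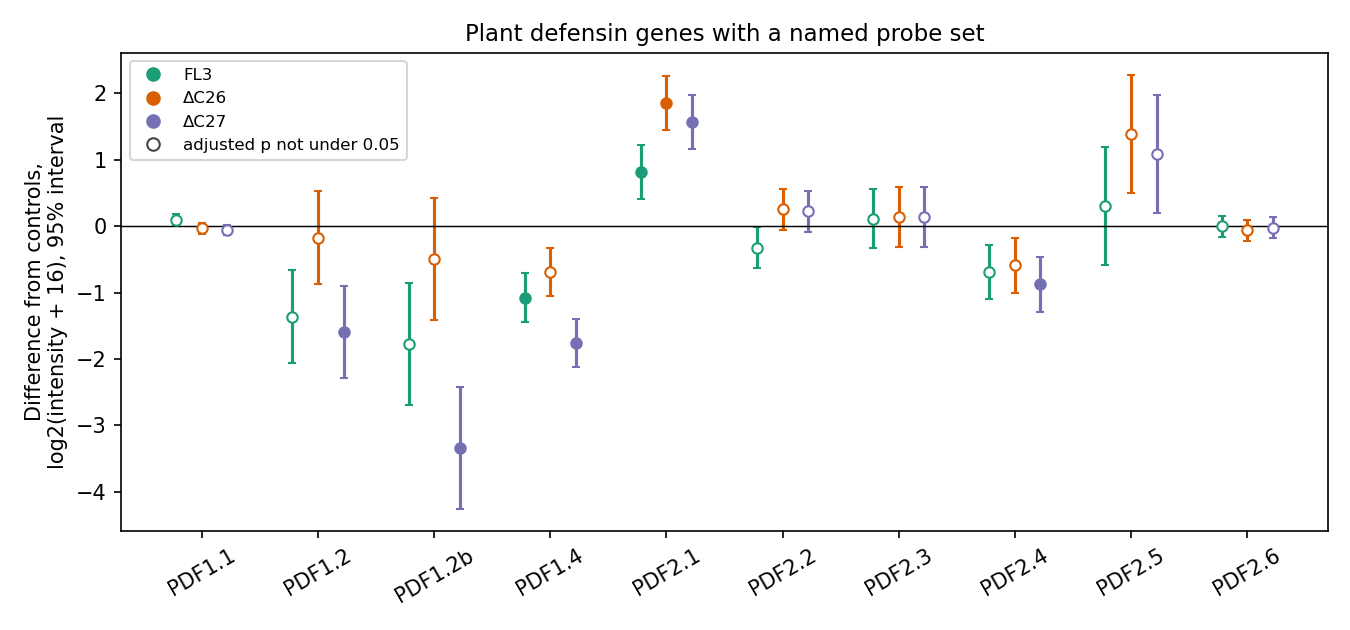
Difference from the mean of the controls in log2(intensity + 16), with 95% intervals, for the 10 plant defensin genes with a named probe set, in FL3, ΔC26 and ΔC27 (2 arrays each, 4 control arrays). Filled points passed an adjusted p of 0.05. PDF2.1 is above 0 in all 3 lines, and the 3 members and PDF2.4 are the genes with filled points below 0.

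Few other genes of the pathway had a named probe set: 10 of 100 in the 5 lists of thionins, ethylene and ERF genes, jasmonate synthesis, jasmonate perception with the MYC branch, and salicylate response. Of their 30 differences from the controls over the 3 lines, 0 were called higher and 1 lower by limma. Over all probe sets 2.2%, 1.91% and 8.2% were called higher and 0.488%, 0.8% and 8.49% lower in FL3, ΔC26 and ΔC27, so these counts are near the overall shares. The 1 call concerned MYC4. MYC4 is a transcription factor that carries the jasmonate signal in the branch opposed to PDF1.2, and it fell in ΔC27 with a log2 difference of -0.58 ± 0.15, from a mean intensity of 37.1 over the controls to 19.3 (limma, adjusted p = 0.029). Its relative MYC3 had differences of -0.02, -0.51 and -0.54 in FL3, ΔC26 and ΔC27 that did not pass (limma, adjusted p from 0.13 to 0.99). MYC4 did not pass against VC alone or in the 2-group fit (limma, adjusted p = 0.21 and 0.060), and its call ended without any 1 of the 4 control arrays or without ΔC27 replicate 1 (log2 difference -0.60 to -0.46, limma adjusted p from 0.063 to 0.16).

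EIN3, the transcription factor that mediates responses to ethylene and acts above ERF1, had differences of -0.34, -0.18 and -0.44 in FL3, ΔC26 and ΔC27, none past the threshold (limma, adjusted p = 0.32, 0.55 and 0.062). The thionin genes THI2.1 and THI2.2 had differences from -0.54 to 0.24 that did not pass. THI2.1 was dim, with line means from 6.28 to 14.9. The listed thionin THI2.4 matched no gene in the gene table and was not read. In jasmonate synthesis OPCL1, which encodes an enzyme that activates jasmonate precursors, had differences of -0.05, 0.03 and 0.96. The last rested on 1 array, since OPCL1 was at 598 and 92.0 in ΔC27 against 77.6 to 134 in the controls, and without ΔC27 replicate 1 the difference was -0.29. The dim genes DGL and JMT had differences between -0.04 and 0.03. GRX480, a glutaredoxin gene of the salicylate response that can repress PDF1.2, had differences of -0.32, -0.76 and -0.47. Its ΔC27 arrays were at 196 and 37.5 and its FL3 arrays at 145 and 70.8, against 87.0 to 220.3 in the controls. The sign turned without ΔC27 replicate 2 (0.52) or FL3 replicate 2 (0.12), and without ΔC27 replicate 1 the ΔC27 difference was -1.47 (limma, adjusted p = 0.021). SAG101, a regulator of salicylate-dependent defence, had 0.29, -0.16 and 0.42. With all arrays none of EIN3, the thionins, OPCL1, DGL, JMT, GRX480 and SAG101 passed in any line (limma, adjusted p from 0.062 to 0.997).

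The genes nearest to each member on the chromosome were looked up too. Among the 5 protein-coding genes on either side in the TAIR10.1 gene table, 8 neighbours of PDF1.2, 5 of PDF1.2b and 4 of PDF1.4 had a named probe set. None of these 17 was called lower by limma in any of the 3 lines, and 2, 1 and 2 of them were called higher in ΔC27. Over all probe sets 8.49% were called lower in ΔC27, and 0.488% and 0.8% in FL3 and ΔC26. A count of 0 among 17 is near those shares. Called higher in ΔC27 were 8.2% of all probe sets, a smaller share than among these neighbours. The cause was not tested. The direct neighbours AT5G44410 of PDF1.2 and AT1G19600 of PDF1.4 had log2 differences in ΔC27 of -0.05 and 0.58, of which the second passed (limma, adjusted p = 0.46 and 0.018).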

How the data were processed

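Probe-set values were used as the authors deposited them: an intensity on a linear scale for each of 22810 probe sets and 10 arrays, judged from the values. Per the labels' protocols, biotin-labelled RNA amplified from Trizol-extracted total RNA was hybridised to Affymetrix arrays. How the authors summarised, background-corrected and normalized them is not given in the sources used here. Of all values 34.8% of values were below 16. After 64 control probe sets were left out, log2(intensity + 16) was fitted with limma 3.58.1 in R 4.3.3 with 1 mean for each line, which left 5 residual degrees of freedom. Variances were moderated with a trend on intensity. Tests were two-sided, and p-values were adjusted by Benjamini-Hochberg in each comparison over its 22746 probe sets, with a threshold of 0.05. The number of arrays limits the precision. The fit was tested on simulated data. The platform annotation listed 1 gene for 13513 probe sets, several for 503 and none for 8730. Names were updated through the gene identifier, and a list gene with several probe sets was read by the brightest.

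The members and lists were chosen with earlier results of these data known. All 3 members were named, all defensins with a probe set, up to 4 list genes past the threshold per list, and the 5 genes of closest pattern per member. The cysteine-rich family and chromosome neighbours were chosen after seeing the annotation, and the other pathway genes are named to show the whole of each list. Alternatives were leaving out each array, VC or Col-0 as the only control, a 2-group fit, pseudocounts of 1 or 64, other variance priors, a filter on dim probe sets, median centring, quantile normalization and a replicate block. The alternative without a pseudocount was included only after seeing the data. Figures were drawn with matplotlib 3.10.9.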

Additional observations from a re-analysis of the deposited data

Results flagged for a closer look

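The effects of the 2 truncated lines against the same controls differed by a test of the difference itself in 2 of the 3 genes. ΔC26 minus ΔC27 was 2.86 in PDF1.2b and 1.07 in PDF1.4 on the log2 scale (limma, adjusted p = 0.017 and 0.020). All 4 arrays kept this direction in both genes, as in 22.9% of all probe sets, and 2.12% were called higher in ΔC26. Neither call held in the 2-group fit of 4 arrays (limma, adjusted p = 0.051 and 0.13). Both calls also ended when certain single arrays of these lines were left out. The difference of 1.42 in PDF1.2 did not pass (limma, adjusted p = 0.069). No line has enough arrays for a search for single outlying arrays.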

How the results depend on the processing

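The falls of PDF1.2, PDF1.2b and PDF1.4 in ΔC27 kept direction and call under all 12 alternatives and without any 1 of the 10 arrays. In FL3 PDF1.2 also passed with a pseudocount of 1 (-2.09) or none (-2.18, chosen after seeing the data), and both PDF1.2 (-1.36) and PDF1.2b (-1.78) passed after the dimmest probe sets were removed, where fewer probe sets were tested (limma, adjusted p = 0.044 and 0.049). With a replicate block the same values of -1.36 and -1.78 passed too (limma, adjusted p = 0.039 and 0.016), while PDF2.1 in FL3 (0.81) did not, and the number of probe sets called in ΔC26 was 377 in place of 617, between the ΔC lines 446 in place of 670, between FL3 and ΔC27 122 in place of 197 and between VC and Col-0 2 in place of 6. The labels do not say that a number marks a shared batch. Over all probe sets the replicate differences of the lines correlated at -0.200 to 0.086. Whether arrays of the same number share a batch that acts on single genes was not tested. PDF1.4 in FL3 did not pass in the 2-group fit (-1.08) or against Col-0 alone (-0.59). PDF1.4 in ΔC26 passed after that filter or with a robust prior (-0.69 in both) and against VC alone (-1.18). PDF1.2 between the ΔC lines passed with a pseudocount of 1 (2.47) or none (2.62), and PDF1.2b (2.86) and PDF1.4 (1.07) did not pass in the 2-group fit of 4 arrays (limma, adjusted p = 0.051 and 0.13). The cause of these changes was not tested.

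With 1 array left out, PDF1.2 in FL3 ranged from -1.66 to -1.06 and passed without VC replicate 1 or either ΔC27 array. PDF1.2b in FL3 ranged from -2.40 to -1.15 and passed without the same 3 arrays. PDF1.4 in FL3 ranged from -1.26 to -0.89. In ΔC26 PDF1.2 ranged from -0.47 to 0.13, reversed without VC replicate 2 (0.13) or Col-0 replicate 2 (0.03), and PDF1.4 from -0.78 to -0.59, past the threshold without either ΔC27 array. Between the ΔC lines PDF1.2 ranged from 1.32 to 1.52, and passed without either VC array, PDF1.2b from 2.499 to 3.21 and PDF1.4 from 0.98 to 1.17. VC minus Col-0 ranged from -0.86 to 0.34 in PDF1.2 and from -1.07 to 0.16 in PDF1.2b, reversed without VC replicate 1 in both and without Col-0 replicate 2 in PDF1.2. Counts of called probe sets ran from 57 to 751 in FL3 (611 with all arrays), 71 to 1727 in ΔC26 (617), 2366 to 4134 in ΔC27 (3797), 109 to 1448 between the ΔC lines (670) and 2 to 48 between VC and Col-0 (6), 14 to 475 between FL3 and ΔC26 (54) and 24 to 1079 between FL3 and ΔC27 (197). Under the other alternatives they ran from 391 to 803, 222 to 741, 2522 to 3964, 16 to 866, 0 to 15, 25 to 73 and 1 to 248. Of 82 differences of list genes that did not pass, 33 changed sign and 20 passed under at least 1 alternative, with 0 past the threshold after a change of sign.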
